A study of Mus musculus with 8 samples.

Results

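The genes described here are 10 cytokine genes of activated B cells: Il6, Il10, Tnf, Lta, Ltb, Tgfb1, Ebi3, Ccl3, Ccl4 and Ccl22. The rule names them and uses no measured value, but they were picked with earlier results of these data known. Each was placed in the 50 kb bin that holds its annotated start (GENCODE vM21, mouse assembly GRCm38). Tnf and Lta share a bin, so the 10 genes lie in 9 start bins, out of 21951 protein-coding genes placed and 13304 autosomal start bins kept. Around each start bin, the contacts with all bins up to 2 Mb away on either side were measured, together with the compartment and the insulation of the bin.

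Contacts were counted by in situ Hi-C. The enzyme MboI cuts crosslinked chromatin inside the nucleus, ends that lie near each other are ligated, and each sequenced read pair records 2 places of the genome that were close together. The cells were splenic B cells of C57BL/6 mice (Pep3b background, males aged 6 to 12 weeks according to the methods), isolated as naive cells by negative selection, labelled with the division dye CTV and cultured with LPS of Salmonella typhosa at 25 µg/ml, which all groups received, so that no unstimulated library is used here. The 8 libraries made up 4 groups, each with 2 biological replicates: 3 h, 10 h, undivided cells at 33 h (imminent division) and, also at 33 h, cells gated in G1 as not having entered S phase (pre-S). For the pre-S group C57BL/6 FUCCI mice were used, a transgenic line whose fluorescent proteins report the phase of the cell cycle, so the transgene and the gate of the sort changed together with the group and cannot be told apart from it.

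Cytokines are secreted proteins through which immune cells act on each other, and B cells make them as well as antibodies. Il6 encodes a cytokine that drives inflammation and B cell maturation, whereas Il10, Tgfb1 and Ebi3 (the subunit shared by IL-27 and IL-35) are best known for restraining immune responses. Tnf, Lta and Ltb are ligands of the TNF family that build and maintain lymphoid tissue, and they sit side by side in the major histocompatibility complex. Ccl3, Ccl4 and Ccl22 are chemokines that attract T cells and myeloid cells. LPS signals through TLR4 and the NF-κB factors, which bind κB sites in the promoters of many such genes.

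The genes were located as follows in GRCm38. Il6 is on the plus strand at chr5:30013114-30019981 in the bin chr5:29999574-30049771. Il10 is on the plus strand at chr1:131019845-131024974 in the bin chr1:131000404-131049840. Tgfb1 is on the plus strand at chr7:25687002-25705077 in the bin chr7:25649651-25700538, which also holds the starts of B9d2, Bckdha, Exosc5 and Tmem91. Ebi3 is on the plus strand at chr17:55952640-55957022 in the bin chr17:55950003-56000105, shared with Fsd1, Shd and Yju2. These shared bins mean that a value of a bin belongs to all genes that start in it.

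The TNF family genes are neighbours. Ltb, on the plus strand at chr17:35194439-35196320, starts in the bin chr17:35149893-35199811 with Aif1, Lst1 and Prrc2a. Tnf (chr17:35199381-35202007) and Lta (chr17:35203165-35205351) are on the minus strand and start in the next bin, chr17:35199808-35250693, with Atp6v1g2, Ddx39b, Gm16181 and Nfkbil1. Ccl3 (minus strand, chr11:83647844-83649355) and Ccl4 (plus strand, chr11:83662584-83664683) also start in adjacent bins, chr11:83600026-83649918 (with Rpl9-ps1) and chr11:83649915-83700297, while Ccl22 is alone in the bin chr8:94699812-94749842 with its gene at chr8:94745590-94751699. Adjacent bins share most of their surroundings, so their values are not independent of each other. At 100 kb, Ccl3 and Ccl4 fall in the same region, which leaves 8 distinct regions for the measures made at that size.

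Promoter sequences are shown for Il6, whose summed contacts rose, and for Tnf, Ltb and Ebi3, whose summed contacts fell. They are the bases just before the start in the RefSeq table of GRCm38.p6, which held 8 of the 10 genes and no entry for Il10 or Ccl4. Capitals mark a κB match (GGG, any 2 bases, then TTTCC) or a TATA match (TATAAA), each searched on both strands.
Il6 (chr5:30012864-30013113, plus strand): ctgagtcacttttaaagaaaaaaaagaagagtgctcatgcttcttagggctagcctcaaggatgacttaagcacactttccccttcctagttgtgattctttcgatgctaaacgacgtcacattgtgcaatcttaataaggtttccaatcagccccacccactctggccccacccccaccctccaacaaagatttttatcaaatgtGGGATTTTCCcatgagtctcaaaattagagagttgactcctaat
Tnf (chr17:35202008-35202257, minus strand): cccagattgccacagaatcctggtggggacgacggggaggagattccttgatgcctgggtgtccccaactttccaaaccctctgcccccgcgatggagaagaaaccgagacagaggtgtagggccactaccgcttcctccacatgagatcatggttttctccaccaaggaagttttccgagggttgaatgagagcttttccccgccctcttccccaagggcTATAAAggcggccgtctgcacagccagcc
Ltb (chr17:35194257-35194438, plus strand): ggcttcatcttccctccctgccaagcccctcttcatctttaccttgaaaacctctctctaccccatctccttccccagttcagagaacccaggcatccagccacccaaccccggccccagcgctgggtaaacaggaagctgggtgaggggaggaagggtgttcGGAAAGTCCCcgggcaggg
Ebi3 (chr17:55952373-55952622, plus strand): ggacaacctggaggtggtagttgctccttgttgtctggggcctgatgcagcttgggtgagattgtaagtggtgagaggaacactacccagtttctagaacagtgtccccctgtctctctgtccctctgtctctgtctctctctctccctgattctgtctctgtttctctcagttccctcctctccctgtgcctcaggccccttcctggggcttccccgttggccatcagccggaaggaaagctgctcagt

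The κB letters were found in the promoters of Il6 and Ltb, against 1.63% of 32851 mouse promoters in the table, and in none of the other 6 listed members. The TATA letters were found in those of Tnf and Lta, against 13.6% of all promoters. Counted from the gene start, the match began at -29 in Tnf but at -167 in Lta, whose sequence is not shown. A match is a description of the letters only, and no binding was measured in these libraries.

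The libraries held between 88703088 and 218945191 read pairs, of which 70.9 to 75.1% of the autosomal pairs joined places on the same chromosome. The second imminent division library stood apart: 3.74% of its read ends lay on the X chromosome and 0.0490% on the Y, against 2.39 to 2.84% and 0.0804 to 0.123% in the other 7 libraries. These shares go against the methods, by which all animals were male, and their source was not tested. The members and all fits are autosomal. The tests that rest on this library were also run without it. Calls on the member bins lost without it are named, while gene lists and single bin pairs are mostly given as counts without it. Within 2 Mb, the member bins held from 1081 to 4816 read pairs per library, so that counting error on a summed value is small beside a value for a single bin pair, which often rests on fewer than 100 read pairs. Expression was not measured in these files, so the identity of the cells was looked at only through the compartments: the 8 B cell marker genes (Cd79a and others) lay in compartment A in every library, but so did 5 of 6 T cell and 6 of 6 myeloid marker genes, and the compartments therefore do not separate these cell types.

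The summed contacts of 7 of 9 cytokine bins differed from 10 h to imminent division and of 5 of 9 to pre-S, in both directions. Of all start bins tested, 44.2% and 37.3% differed. Between 10 h and imminent division Il6 rose by 22.6%, Tnf/Lta fell by 21.1%, Ebi3 fell by 19.7%, and Ltb, Tgfb1 and Il10 fell by less. The Il10 direction depended on a filter described with its values. Ccl22 did not pass the test (a rise of 0.566%), and the directions of Ccl3, Ccl4 and Ccl22 depended on the normalisation. Summed contacts are given as normalised CPM, read pairs scaled to a common library total and then loess-normalised across libraries, and tests are edgeR's quasi-likelihood test with Benjamini-Hochberg adjustment (FDR) over all 13256 start bins tested. A fall in a bulk library can come from fewer cells that hold a contact or from a rarer contact in each cell, and these cannot be told apart.

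**Figure D1:**
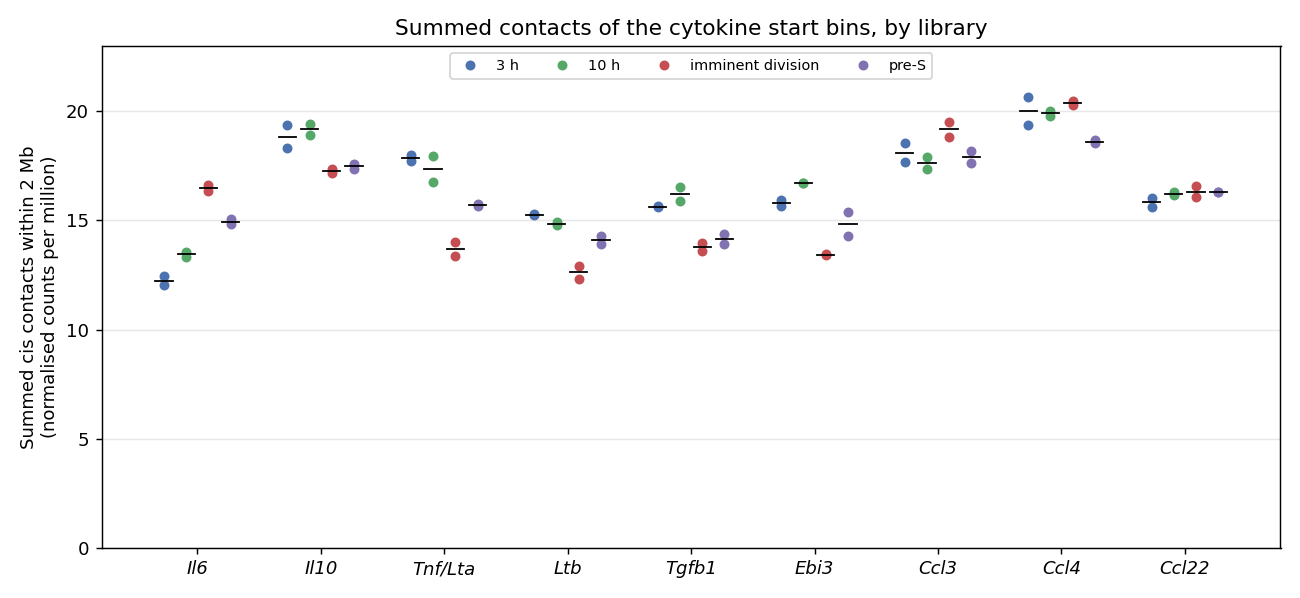
Summed cis contacts within 2 Mb of each cytokine start bin (y axis, normalised CPM, from 0) in the 8 libraries. Points are libraries, coloured by group, and black bars are the means of 2 libraries. The Il6 libraries at 33 h lie above those at 10 h, and those of Tnf/Lta, Ebi3 and Tgfb1 lie below.

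Il6 was the member whose contacts rose. Its summed contacts were 12.04 and 12.45 CPM at 3 h, then 13.3 and 13.5 at 10 h, 16.6 and 16.4 for imminent division and 15.1 and 14.8 among pre-S cells. No 2 groups overlapped, and the order ran from 3 h through 10 h and pre-S to imminent division. From 10 h to imminent division the sum rose by 22.6% (log2 change 0.29 ± 0.04 SE, FDR = 1.57e-05), and to pre-S by 11.1% (log2 change 0.15 ± 0.04, FDR = 0.00746). The step from 3 h to 10 h did not pass the test (log2 change 0.13, FDR = 0.228). Imminent division lay above pre-S by 10.3% (FDR = 0.0448), a call that was lost without the second imminent division library (FDR = 0.156) and without each of the other 10 h, imminent division and pre-S libraries. The rise to pre-S was lost without the first 10 h library (FDR = 0.0608) or the first pre-S library (FDR = 0.0917), with bin coverage in the offsets (FDR = 0.0748) and by DESeq2 (FDR = 0.0636), whereas the rise to imminent division held without each library in turn. The call between the 33 h groups was also lost with TMM factors (FDR = 0.146), bin coverage (FDR = 0.854), windows of 1 Mb (FDR = 0.0676), a replicate block (FDR = 0.0895) and DESeq2 (FDR = 0.207).

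Il10, Tgfb1 and Ebi3 were each called lower in both 33 h groups, as were 21.9% of all start bins at imminent division and 18.1% in pre-S cells. Il10 had 18.3 and 19.4 CPM at 3 h, then 18.9 and 19.4 at 10 h, 17.2 and 17.4 for imminent division and 17.6 and 17.4 among pre-S cells. Both 33 h groups lay below both earlier groups and overlapped each other. From 10 h the sum fell by 9.93% to imminent division (log2 change -0.15 ± 0.04, FDR = 0.00332) and fell by 8.90% to pre-S (FDR = 0.014). The first was lost without the second 10 h library (FDR = 0.0519), and the second without that library (FDR = 0.107) or either pre-S library. As an alternative, a filter modelled on the study's was used, which keeps bin pairs at any distance on the chromosome that lie above a curve of abundance against distance. Here it was applied to 50 kb start bins, whereas the study applied it to narrower promoter windows. With this distance filter the change to imminent division turned to 0.02 (FDR = 0.709) and that to pre-S was -0.04 (FDR = 0.437), and the latter was lost as well with bin coverage in the offsets (FDR = 0.154) and in windows of 1 Mb (FDR = 0.0856).

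Tgfb1 had 15.6 and 15.6 CPM at 3 h, then 16.6 and 15.9 at 10 h, 14.0 and 13.6 for imminent division and 13.9 and 14.4 among pre-S cells. Again the 33 h groups lay below both earlier groups and overlapped each other. From 10 h it fell by 15.0% to imminent division (log2 change -0.23 ± 0.04, FDR = 0.000126) and fell by 12.7% to pre-S (log2 change -0.20 ± 0.04, FDR = 0.00151), and both held without each library in turn. With the distance filter the call to pre-S was lost (FDR = 0.0562).

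Ebi3 had 15.9 and 15.7 CPM at 3 h, then 16.7 and 16.7 at 10 h, 13.4 and 13.4 for imminent division and 14.3 and 15.4 among pre-S cells. Its imminent division libraries lay below all others. The sum fell by 19.7% to imminent division (log2 change -0.32 ± 0.04, FDR = 1.19e-05) and fell by 11.3% to pre-S (log2 change -0.17 ± 0.04, FDR = 0.00403). The latter was lost without the first pre-S library (FDR = 0.136) and with bin coverage in the offsets (FDR = 0.182), and turned to 0.03 with the distance filter (FDR = 0.626). Imminent division and pre-S differed by 0.14 on the log2 scale, which did not pass the test (FDR = 0.055), though it did in windows of 1 Mb (FDR = 0.0121), with bin coverage (FDR = 0.026) and with the distance filter (FDR = 0.0139).

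The TNF family bins fell as well. The bin of Tnf and Lta had 17.98 and 17.7 CPM at 3 h, then 17.97 and 16.8 at 10 h, 14.0 and 13.4 for imminent division and 15.7 and 15.7 among pre-S cells. The imminent division libraries were lowest and the pre-S libraries lay between them and the earlier groups. The bin fell by 21.1% from 10 h to imminent division (log2 change -0.34 ± 0.04, FDR = 8.45e-06), the deepest fall among the 9 bins in this fit, and fell by 9.35% to pre-S (FDR = 0.016). Without the second imminent division library the fall of Ebi3 to imminent division (-0.31) was deeper than that of this bin (-0.29). From pre-S to imminent division it fell by 13.0% (log2 change -0.20 ± 0.04, FDR = 0.0173), which was lost without the second imminent division library (FDR = 0.157) or either pre-S library. The fall to pre-S was lost without the first 10 h library (FDR = 0.18) or either pre-S library, with bin coverage (FDR = 0.136) and with the distance filter (FDR = 0.102). The difference between the 33 h groups was lost with TMM factors (FDR = 0.102) and bin coverage (FDR = 0.183).

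Ltb, in the adjoining bin, had 15.3 and 15.2 CPM at 3 h, then 14.8 and 14.9 at 10 h, 12.9 and 12.3 for imminent division and 13.9 and 14.3 among pre-S cells. Its groups did not overlap and stood in the same order as those of Tnf/Lta. Its sum fell by 15.1% between 10 h and imminent division (log2 change -0.24 ± 0.04, FDR = 0.000133), and the difference of pre-S from 10 h did not pass the test (log2 change -0.08, FDR = 0.166), though it did with bin coverage in the offsets (-0.28, FDR = 9.08e-05). From pre-S to imminent division the sum fell by 10.5% (FDR = 0.0334), though not without the second imminent division library (FDR = 0.262), either pre-S or either 10 h library. That difference was also lost with TMM factors (FDR = 0.126), a replicate block (FDR = 0.0706) and DESeq2 (FDR = 0.129), and was 0.00 on the log2 scale, with its sign turned, with bin coverage (FDR = 0.97) and with the distance filter (FDR = 0.98).

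Of the 3 chemokine bins, Ccl3 alone passed the test on summed contacts, in 1 comparison. Ccl3 had 17.7 and 18.5 CPM at 3 h, then 17.4 and 17.9 at 10 h, 18.8 and 19.5 for imminent division and 17.6 and 18.2 among pre-S cells. It passed the test as higher at imminent division than at 10 h, by 8.57% (FDR = 0.0175), but with library-wide TMM factors in place of the loess normalisation the change was -0.02 on the log2 scale (FDR = 0.668), and the call was lost without the second imminent division library (FDR = 0.116) or either 10 h library. No direction is therefore given for Ccl3. Ccl4 lay between 18.6 and 20.7 CPM and Ccl22 between 15.6 and 16.6 CPM in all libraries, and neither passed the test in any of the 4 comparisons. Under other settings both were called, in opposed directions for Ccl4. From 10 h to imminent division Ccl4 changed by -0.13 with TMM factors (FDR = 0.00956) and by 0.09 with the distance filter (FDR = 0.0329), and Ccl22 by 0.09 with that filter (FDR = 0.0332). To pre-S Ccl4 changed by -0.24 with TMM factors (FDR = 0.00139). The smallest FDR of Ccl4 was 0.06, for imminent division over pre-S (log2 difference 0.13 ± 0.04).

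**Figure D2:**
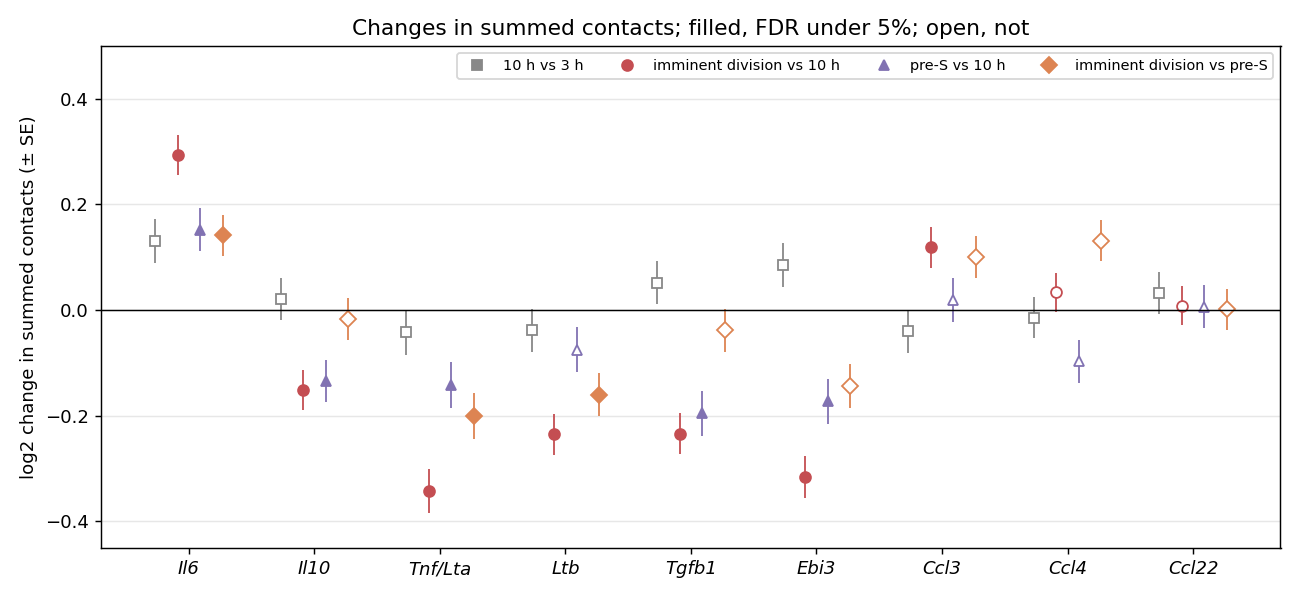
Log2 change in summed contacts (y axis, with its SE) of each start bin in the 4 comparisons. Filled symbols passed an FDR of 5% and open symbols did not. For imminent division over 10 h, Tnf/Lta (-0.34) and Ebi3 (-0.32) were lowest and Il6 (0.29) was highest.

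Counted over the 9 bins, 7 passed from 10 h to imminent division, 2 higher and 5 lower, against 44.2% of all start bins tested (22.3% higher and 21.9% lower). This split counts Ccl3 as higher and Il10 as lower, whose directions turned under other settings. With TMM factors or DESeq2 it was 1 higher and 6 lower, and with the distance filter 4 higher and 3 lower. The shares of all start bins by direction under these settings are not given here. These splits are therefore not to be set against the 22.3% and 21.9% of the loess fit. From 10 h to pre-S, 5 of 9 passed, 1 higher and 4 lower, against 37.3% of all (19.2% higher and 18.1% lower). Between imminent division and pre-S, 3 of 9 passed, 1 higher and 2 lower, against 4.1% of all (2.17% higher and 1.92% lower). From 3 h to 10 h none passed edgeR's test, 1 had an unadjusted p under 0.05, DESeq2 called none, and the background was 0.0679%. The median log2 change of the 9 bins was -0.15, -0.10, -0.02 and 0.02 in these comparisons in the order given. That of all start bins was near 0.00 in each, where the loess normalisation places it. Over all start bins, the libraries of the groups compared did not overlap in 75.6%, 73.4%, 51.8% and 41.6% of bins in the same order, so that separation of 2 libraries from 2 is common here. The comparisons with 10 h share its libraries, as do those with each 33 h group. With the distance filter 1 of 9 passed from 10 h to pre-S, Il6, and the Ltb change to imminent division was lost (FDR = 0.0511). With the coverage of each bin in the offsets the pre-S calls of Il6, Il10, Tnf/Lta and Ebi3 were lost, and with TMM factors all 3 calls between the 33 h groups were.

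Where these contacts lay is seen when each bin pair is divided by the mean count of all pairs at the same distance, on the same chromosome and in the same library. On this scale a value of 1 is the mean for the distance, and the values carry no test. How often the libraries of compared groups lie apart over all bins or bin pairs was not counted on this scale.

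**Figure D3:**
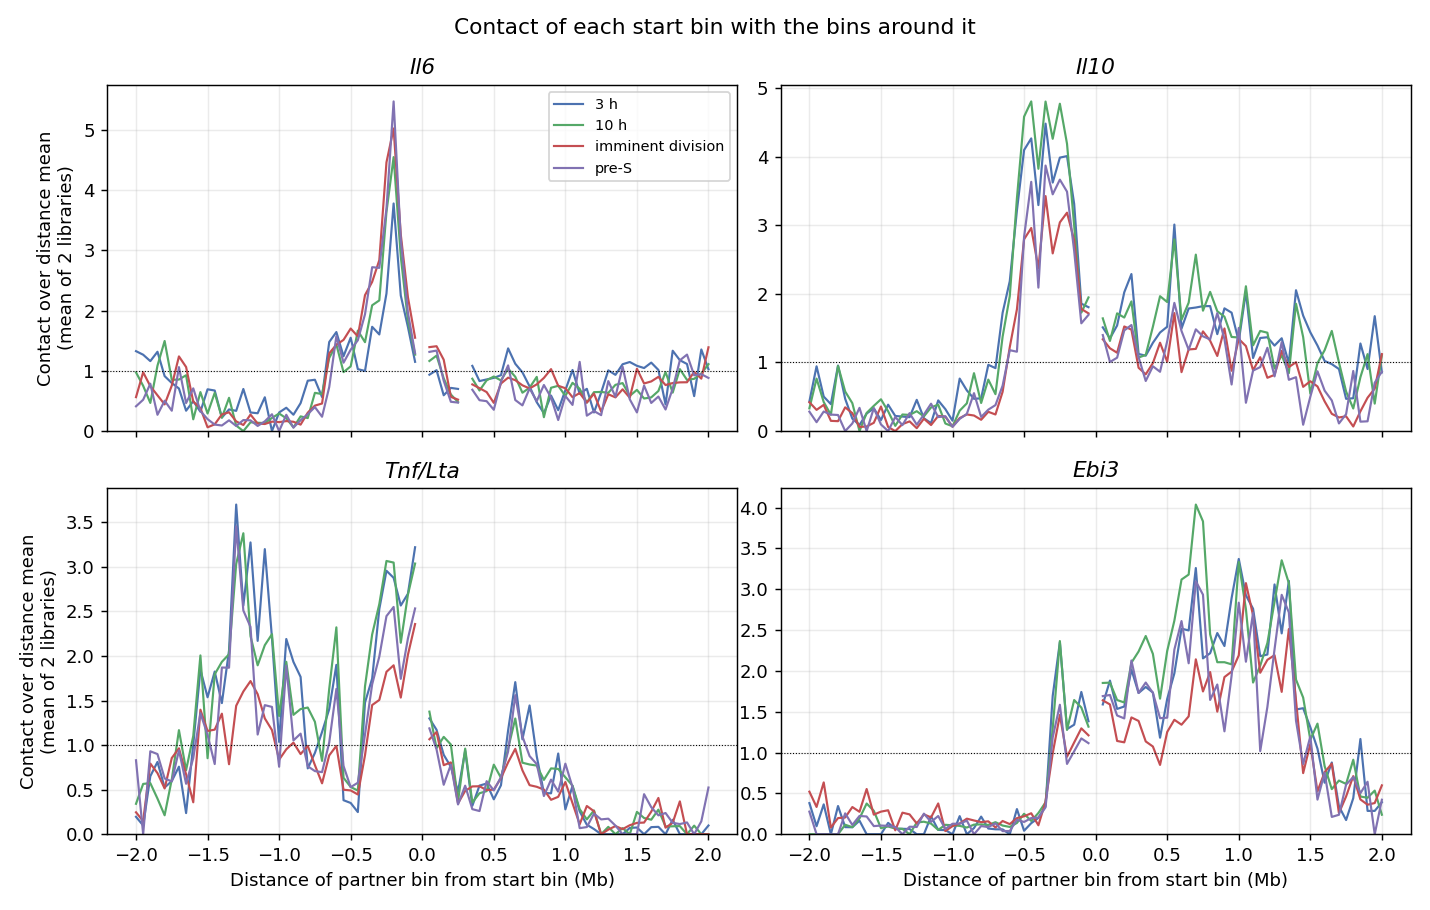
Contact of the start bins of Il6, Il10, Tnf/Lta and Ebi3 with each 50 kb bin within 2 Mb (x axis, distance in Mb, lower coordinates to the left), as the count over the mean at that distance (y axis, from 0, mean of 2 libraries per group). The Il6 contacts peak 0.2 Mb to the left, and those of Il10, Tnf/Lta and Ebi3 are lower at imminent division than at 10 h over wide stretches.

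The contacts of Il6 were concentrated on one side. Over all 8 libraries its highest partner at least 100 kb away was a bin 200 kb towards lower coordinates, chr5:29800153-29849877, which overlaps Dnajb6, a chaperone gene, with 4.70 times the mean for the distance. In this bin the ratio was 3.92 and 3.63 at 3 h, then 4.94 and 4.16 at 10 h, 5.39 and 4.65 for imminent division and 5.48 and 5.45 among pre-S cells. The 3 h libraries were lowest. Over all partners from 50 to 250 kb the ratio rose from 1.33 ± 0.00456 (SD, n = 2) at 3 h to 1.602 ± 0.0354 at 10 h and 1.93 ± 0.0644 at imminent division, with 1.73 ± 0.0447 in pre-S cells. From 1050 kb to 2 Mb it ran the other way, from 0.75 ± 0.101 at 3 h to 0.602 ± 0.0464, 0.552 ± 0.0606 and 0.490 ± 0.105, so the near contacts of Il6 gained while the far ones did not.

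Il10 contacted a stretch 200 to 550 kb towards lower coordinates at several times the mean for the distance in the earlier groups. Its highest partner was the bin chr1:130649941-130699754, 350 kb away, where C4bp starts, which encodes a binding protein of complement. The ratio there was 4.25 and 4.71 at 3 h, then 4.71 and 4.90 at 10 h, 3.18 and 3.67 for imminent division and 3.86 and 3.88 among pre-S cells. Both 33 h groups lay below both earlier ones. From 300 kb to 1 Mb, the ratio dropped from 2.26 ± 0.0533 at 10 h to 1.44 ± 0.041 for imminent division and 1.54 ± 0.036 for pre-S cells. Over all partners within 2 Mb it was 1.94 at 10 h, 1.47 for imminent division and 1.47 for pre-S cells, a wider gap than in the loess-normalised sum over the same partners.

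Tnf/Lta met bins towards lower coordinates more than those at higher coordinates. At 10 h the ratio over 2 Mb was 2.25 ± 0.0756 on the lower side and 0.849 ± 0.0901 on the higher. Its highest partner, 1300 kb away at chr17:33899551-33950076, holds the starts of Daxx, Tapbp, Pfdn6, Platr17, Rgl2, Wdr46 and Zbtb22, and had a ratio of 2.91 over all libraries but only 14 to 27 read pairs in each. The next partners were nearer, 200 and 250 kb away (Clic1, Msh5, Sapcd1, Vars and Vwa7; Gm20481, Hspa1a, Hspa1b, Hspa1l and Lsm2). The bin 1300 kb away had ratios of 5.22 and 2.18 at 3 h. At imminent division its mean of 1.44 lay below those of the nearer partners (1.90 and 1.82). At the 200 kb partner the ratio was 2.87 and 2.88 at 3 h, then 3.07 and 3.03 at 10 h, 1.76 and 2.03 for imminent division and 2.28 and 2.82 among pre-S cells, with imminent division lowest. The Ltb bin met the Tnf/Lta bin next to it at 2.31 to 3.31 times the mean for the distance, and this contact did not pass the test in any comparison (log2 change to imminent division -0.16 ± 0.07, FDR = 0.262).

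Ebi3 met bins towards higher coordinates more than those at lower coordinates, with ratios over 2 Mb at 10 h of 2.03 ± 0.0116 and 0.929 ± 0.00249. Its highest partner was the Ranbp3 bin chr17:56650183-56699521, 700 kb away, with a ratio of 3.76 and 2.76 at 3 h, then 3.88 and 4.20 at 10 h, 2.15 and 2.13 for imminent division and 2.85 and 3.35 among pre-S cells. The imminent division libraries were lowest. From 50 to 250 kb the ratio was 1.66 ± 0.0378 at 10 h, against 1.34 ± 0.0188 for imminent division and 1.40 ± 0.0682 for pre-S. Over 300 kb to 1 Mb it was 1.44 ± 0.0626 at 10 h, against 0.864 ± 0.0459 and 1.13 ± 0.128. From 1050 kb to 2 Mb it was 0.88 ± 0.00207, against 0.864 ± 0.0567 and 0.716 ± 0.0323. At imminent division the ratio was thus lower in the nearer distance classes, and in pre-S cells in all 3.

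Tgfb1 had its highest partners at 1500 to 1800 kb, the bins of Coq8b and Itpkc, of Egln2, Snrpa and 5 other genes, and of Prx, Sertad1 and Sertad3, with ratios of 4.86, 4.57 and 4.43 over all libraries. For Ltb the highest partner at least 100 kb away was the H2-K1 bin at 1200 kb (ratio 2.26). The adjoining Tnf/Lta bin, nearer than that limit, had higher ratios. On this scale the contacts of Ccl4 and Ccl22 within 2 Mb were lower in both 33 h groups than at 10 h. So were those of Il10, Tnf/Lta, Ltb, Tgfb1 and Ebi3, while Il6 was higher in both. Ccl3 had mean ratios of 1.38 at 10 h, 1.38 at imminent division and 1.30 in pre-S cells. Its rise at imminent division in the loess-normalised sum was thus not seen on this scale. For Ccl4 and Ccl22 the libraries at 33 h did not overlap those at 10 h. How often this occurs over all start bins was not counted on this scale. Ccl4 had ratios of 1.57 and 1.57 at 10 h, against 1.44 and 1.46 for imminent division and 1.33 and 1.35 among pre-S cells. Ccl22 had 1.65 and 1.63 at 10 h, against 1.47 and 1.51 for imminent division and 1.45 and 1.46 among pre-S cells. The highest partner of Ccl4 was the bin of Ccl6 and Ccl9 100 kb away (2.37), followed by that of Ccl5 (2.20), and the highest partner of Ccl22 was the bin of Ccl17, 100 kb away (3.13). Ccl3 met the Ddx52 bin, 300 kb away, at 2.27 times the mean, with no chemokine gene among its 3 highest partners, and Ccl3 and Ccl4 met each other at 1.34 to 1.64 times the mean, with no call in any comparison. The H2 class I genes, and Hspa1a and Hspa1b, are close copies, and contacts of their bins are uncertain to the extent that reads could not be placed uniquely. With the coverage of each bin in the expected count, the ratios of the highest partners were lower, between 1.07 and 2.77. For Il10, Tnf/Lta, Ebi3 and Ccl4 another of the 3 highest partners then had a higher ratio than the first.

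Differential interactions (DIs) are single bin pairs tested with edgeR over 1459393 bin pairs of the autosomes. Of 393 tested pairs anchored in a member bin, 39 differed from 10 h to imminent division, 4 stronger and 35 weaker. This is 9.92%, against 2.29% of all bin pairs up to 2 Mb apart and 3.37% of those in which either bin holds a gene start (0.824% stronger and 2.54% weaker). The 35 weaker pairs were divided between Ebi3 (13), Tnf/Lta (11), Il10 (6), Tgfb1 (3), Ltb (1) and Ccl4 (1). All 4 stronger pairs belonged to Il6. Ccl3 and Ccl22 had no DI in this comparison. The 39 pairs are not independent, since neighbouring bins and a shared anchor link them, and the count dropped to 4 when the second 10 h library was left out, to 14 for the first 10 h library, to 15 for imminent division replicate 1 and to 19 for replicate 2. It was 11 by DESeq2, which gave an adjusted p to 74 of the 393 pairs. The shares of all bin pairs called with a library left out are not given here. The counts without a library are therefore not to be set against 2.29% or 3.37%.

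The 4 stronger pairs of Il6 joined it to the 4 bins 100 to 250 kb towards lower coordinates. The pair with the Dnajb6 bin 200 kb away had 111 and 199 read pairs at 3 h, then 199 and 213 at 10 h, 402 and 411 for imminent division and 221 and 188 among pre-S cells, in libraries of unequal depth. After normalisation the change from 10 h to imminent division was 0.46 ± 0.10 on the log2 scale (FDR = 0.00271). The pair at 250 kb, also over Dnajb6, changed by 0.54 ± 0.12 (FDR = 0.00309), and that at 100 kb by 0.42 ± 0.11 (FDR = 0.0171). The 200 kb call was lost with TMM factors (0.21, FDR = 0.297), without the second 10 h library (FDR = 0.272) and without the first imminent division library (FDR = 0.181).

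The weaker pairs of Ebi3 lay mainly 300 to 750 kb towards higher coordinates. The lowest p was that of the bin chr17:56299817-56349830, 350 kb away, where Arrdc5, Kdm4b and Uhrf1 (a maintenance factor of DNA methylation) start, with 33 and 60 read pairs at 3 h, then 56 and 87 at 10 h, 55 and 63 for imminent division and 48 and 41 among pre-S cells. It changed by -1.08 ± 0.19 on the log2 scale (FDR = 8.19e-05), and was lost without the second 10 h library (FDR = 0.0785). The pairs with the Safb and Safb2 bin at 600 kb (-1.27 ± 0.23, FDR = 0.000109) and the Ndufa11 and Vmac bin at 750 kb (-1.27 ± 0.23, FDR = 0.000143) fell by a similar amount. Safb and Safb2 encode factors that attach chromatin to the nuclear scaffold.

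Tnf/Lta had weaker pairs with 9 bins at lower and 2 at higher coordinates. The bin chr17:34599844-34650159, 600 kb away, where Agpat1, Atf6b, Egfl8, Fkbpl, Ppt2, Prrt1 and Rnf5 start, had 20 and 32 read pairs at 3 h, then 36 and 39 at 10 h, 24 and 32 for imminent division and 24 and 20 among pre-S cells, and changed by -1.29 ± 0.26 (FDR = 0.000999). The heat shock gene bin at 250 kb (Hspa1a, Hspa1b, Hspa1l, Lsm2 and Gm20481) changed by -0.61 ± 0.14 (FDR = 0.00558), and the H2-K1 bin at 1250 kb by -1.32 ± 0.32 (FDR = 0.0103). The first of these was lost without the first 10 h library (FDR = 0.0556). Ltb had 1 weaker pair, with the bin of Cd320, Kank3, Ndufa7 and Rps28 at 1350 kb (-1.47 ± 0.43, FDR = 0.0402, on 6 to 16 read pairs per library). This call was lost without either 10 h library or the first imminent division library.

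The weaker pairs of Tgfb1 included those with Grik5 and Zfp574 at 600 kb and with Ccdc97 in the adjoining bin. The first had 24 and 35 read pairs at 3 h, then 33 and 54 at 10 h, 30 and 54 for imminent division and 28 and 23 among pre-S cells, and changed by -0.91 ± 0.23 (FDR = 0.0155). It was lost without the second 10 h library (FDR = 0.382) or the first imminent division library (FDR = 0.256). The pair with Ccdc97 changed by -0.33 ± 0.09 (FDR = 0.0274). The 1 weaker pair of Ccl4 at imminent division, with Dusp14 and Synrg at 350 kb, changed by -0.57 ± 0.16 (FDR = 0.0382), a call lost without the second imminent division library (FDR = 0.118).

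The pair of Il10 with the Cd55 bin chr1:130450170-130499900, 550 kb away, was weaker in both 33 h groups. Cd55 encodes a brake on complement. Read pairs were 37 and 50 at 3 h, then 47 and 65 at 10 h, 46 and 63 for imminent division and 18 and 15 among pre-S cells. The change from 10 h was -0.88 ± 0.21 to imminent division (FDR = 0.00629) and -1.52 ± 0.27 to pre-S (FDR = 0.000168). The first was lost without the second 10 h library (FDR = 0.179) or the first imminent division library (FDR = 0.0908), and the second without the first pre-S library (FDR = 0.055). Il10 also had a weaker pair with Slc26a9 at 700 kb at imminent division (-1.07 ± 0.28, FDR = 0.0166). In pre-S cells its pairs with Mfsd4a at 1050 kb (-2.29 ± 0.55, FDR = 0.0164, on 2 to 22 read pairs per library) and with the complement-related gene Zp3r at 400 kb (-0.80 ± 0.20, FDR = 0.0235) were weaker.

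From 10 h to pre-S, 9 of the 393 pairs differed, all weaker, which is 2.29% against 0.679% of all pairs up to 2 Mb and 0.547% of those with a gene start (0.397% weaker). Shares of all pairs with a library left out or with TMM factors are not given here. The counts under those settings, at the end of this paragraph, are therefore not to be set against 0.679% or 0.547%. Of the 9 pairs, Il10 had 4, Ccl4 3, and Tnf/Lta and Ebi3 1 each. Those of Ccl4 included pairs with Dusp14 and Synrg at 350 kb (-0.89 ± 0.20, FDR = 0.00991) and with Acaca and Tada2a at 450 kb (-1.01 ± 0.27, FDR = 0.0453). That of Tnf/Lta was with the class I gene H2-Q4 at 150 kb (-0.99 ± 0.23, FDR = 0.0107), and that of Ebi3 with Adgre4 at 150 kb (-0.75 ± 0.18, FDR = 0.0167). Leaving out pre-S replicate 1 gave 0 such pairs, pre-S replicate 2 gave 2, 10 h replicate 1 gave 2 and 10 h replicate 2 gave 3, while TMM factors gave 16.

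Between imminent division and pre-S, 3 pairs differed: Ccl3 with Heatr6 at 150 kb was stronger (0.55 ± 0.14, FDR = 0.0276), and Tnf/Lta with the Daxx and Tapbp bin at 1300 kb (-1.45 ± 0.36, FDR = 0.0266) and Ebi3 with Safb and Safb2 at 600 kb (-0.96 ± 0.25, FDR = 0.0463) were weaker. This is 0.763% against 0.407% of all pairs up to 2 Mb and 0.34% of those with a gene start. All 3 calls were lost without the second imminent division library (FDR = 0.444, 0.312 and 0.15) and without the first pre-S library. From 3 h to 10 h none of the 393 pairs passed edgeR's test, 30 had an unadjusted p under 0.05, DESeq2 called none, and the background was 0.000732% of pairs up to 2 Mb and 0.00114% of those with a gene start.

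Chromosomes divide into an active compartment A and an inactive compartment B, read here from the first principal component of the contact correlations at 100 kb, scaled to unit variance and positive in A. All 10 members lay in A in every library, against 44.2% of 23791 bins. That share includes bins without genes. A was set as the side with more gene starts, so bins with genes lean to A by construction, and their own share is not given here. Of other lists, 18 of 18 receptors and partners, 8 of 8 B cell, 6 of 6 myeloid and 5 of 6 T cell markers lay in A. Of other cytokines 19 of 26 did. The 10 of 10 is therefore not read as a trait of the members. The component was above 1 in all libraries for every member but Ebi3, which stayed positive and moved towards 0.

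**Figure D4:**
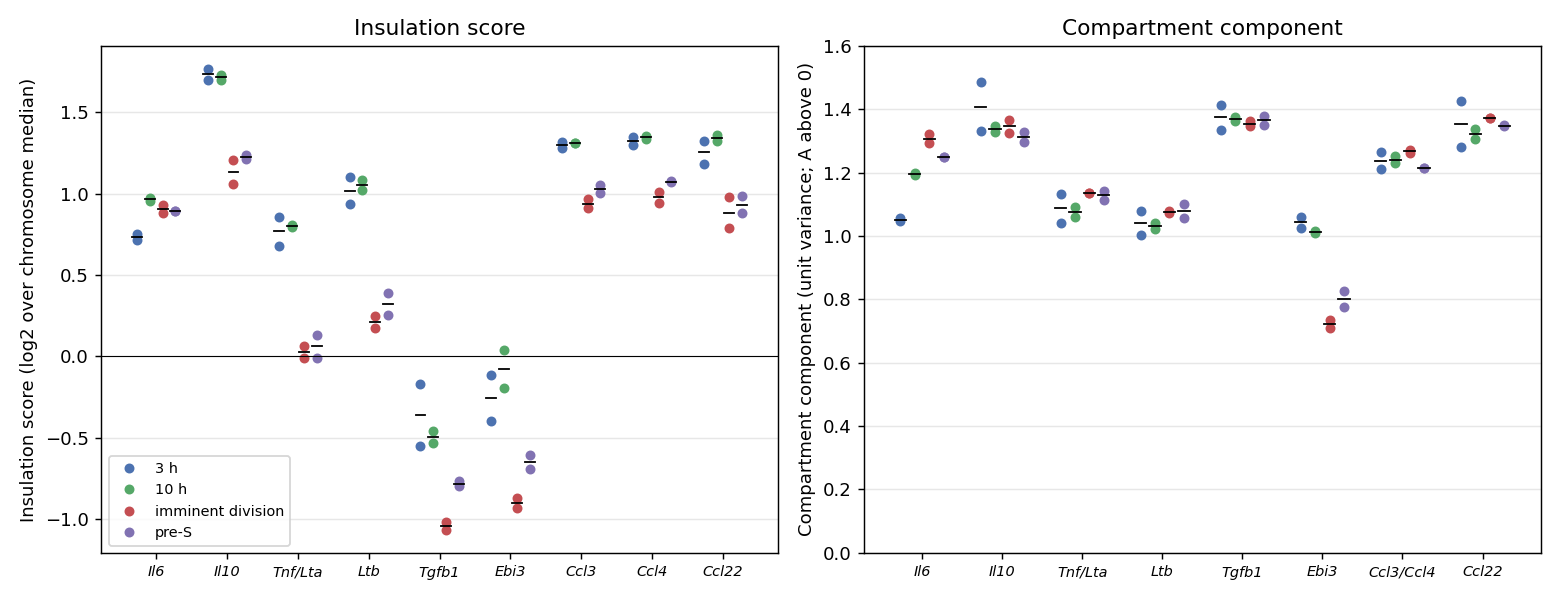
Insulation score (left, log2 over the chromosome median) and compartment component (right, unit variance, A above 0) of the cytokine bins. Points are libraries, coloured by group, and black bars are means of 2 libraries; Ccl3 and Ccl4 share a compartment bin. Ebi3 drops in both panels at 33 h, and Il6 moves up in the right panel.

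The compartment component of Ebi3 was 1.06 and 1.03 at 3 h, then 1.02 and 1.01 at 10 h, 0.710 and 0.736 for imminent division and 0.826 and 0.777 among pre-S cells. Both 33 h groups lay below both earlier ones, and how often this occurs over all bins was not counted. The change from 10 h was -0.29 ± 0.03 to imminent division (limma, FDR = 4.34e-05) and -0.21 ± 0.03 to pre-S (FDR = 0.000434), and both held without each library in turn. The component of Il6 was 1.06 and 1.047 at 3 h, then 1.19 and 1.2 at 10 h, 1.29 and 1.32 for imminent division and 1.25 and 1.25 among pre-S cells. It rose by 0.14 ± 0.03 from 3 h to 10 h (FDR = 0.0279) and by 0.11 ± 0.03 from 10 h to imminent division (FDR = 0.021), but both calls were lost in 250 kb bins (FDR = 0.294 and 0.729), without the second imminent division library (FDR = 0.0521 and 0.172), and without each other library from 10 h on, in 1 or both comparisons.

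No other member passed. Of the 8 distinct bins, 1 was called from 3 h to 10 h against 3.28% of all bins, 2 from 10 h to imminent division against 22.2%, and 1 from 10 h to pre-S against 25.6%. Between imminent division and pre-S limma called 0, with 1 unadjusted p under 0.05 (Ebi3), against 18.5% of all bins. When the component was quantile-normalised across libraries, 4 of 8 were called from 10 h to pre-S and 1 between the 33 h groups. The shares of all bins called under that normalisation in these comparisons are not given here. The counts are therefore not to be set against 25.6% and 18.5%.

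Insulation was scored as the log2 mean count between the 10 bins before and the 10 bins after a bin, over the median of its chromosome and library, so that a lower score means fewer contacts across the bin. Between 10 h and both 33 h groups the score was lower at all 9 member bins, and the fall passed the test at every one but Il6. Thus 8 of 9 passed at imminent division, against 33.4% of all bins and 55.9% of bins with a gene start, and 8 of 9 in pre-S cells, against 35.1% and 58.3%. The members thus moved in the direction in which most gene-bearing bins moved. The adjacent bins of Tnf/Lta and Ltb, and of Ccl3 and Ccl4, look across nearly the same stretch and are not separate counts.

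The deepest falls were those of Ltb, Ebi3 and Tnf/Lta. Ltb scored 1.103 and 0.93 at 3 h, then 1.08 and 1.02 at 10 h, 0.18 and 0.25 for imminent division and 0.25 and 0.39 among pre-S cells, a change from 10 h of -0.84 ± 0.07 (limma, FDR = 2.08e-05) and -0.73 ± 0.07 (FDR = 0.000138). Ebi3 scored -0.11 and -0.40 at 3 h, then -0.19 and 0.04 at 10 h, -0.94 and -0.87 for imminent division and -0.61 and -0.69 among pre-S cells, a change of -0.83 ± 0.09 (FDR = 4.54e-05) and -0.57 ± 0.09 (FDR = 0.000691). In each, the 33 h libraries lay below all earlier ones. How often this occurs over all bins was not counted for this score.

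Tnf/Lta scored 0.86 and 0.68 at 3 h, then 0.81 and 0.79 at 10 h, -0.01 and 0.06 for imminent division and -0.01 and 0.13 among pre-S cells (changes of -0.77 ± 0.07, FDR = 2.39e-05, and -0.74 ± 0.07, FDR = 0.000138). Il10 scored 1.77 and 1.70 at 3 h, then 1.73 and 1.70 at 10 h, 1.06 and 1.21 for imminent division and 1.21 and 1.24 among pre-S cells, the highest scores among the members in the earlier groups. Tgfb1 had the lowest score of the members in every library, from -0.17 at 3 h to -1.07 at imminent division. Il6 scored 0.75 and 0.71 at 3 h, then 0.98 and 0.96 at 10 h, 0.88 and 0.93 for imminent division and 0.89 and 0.89 among pre-S cells, and changed by -0.06 ± 0.06 (FDR = 0.382) and -0.07 ± 0.06 (FDR = 0.274) from 10 h.

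The remaining members, Ccl3, Ccl4 and Ccl22, fell by 0.37, 0.37 and 0.46 to imminent division. Those 3 and Tgfb1 moved by between -0.27 and -0.41 to pre-S, and the Tgfb1 call there (FDR = 0.0221) was lost without any 1 of the 10 h or pre-S libraries. From 3 h to 10 h limma called none of the 9 bins, with 1 unadjusted p under 0.05 (Il6), against 0.0192% of all bins, and none between the 33 h groups, with 2 (Tgfb1 and Ebi3), against 9.56%. With the coverage of each bin divided out, the calls were 6, 8, 6 and 9 of 9 for 10 h over 3 h, imminent division over 10 h, pre-S over 10 h and imminent division over pre-S, and those of Il10, Tgfb1 and Ccl22 from 10 h to pre-S were lost. Calls over all bins also became far more frequent in the first and last of these comparisons, with counts in the closing paragraph. The 6 and 9 of the first and last are therefore not read as a result about the members.

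The direction of contacts was read as the log2 ratio of the counts of a 100 kb region with the 1 Mb at lower to those with the 1 Mb at higher coordinates. A ratio far from 0 is found beside a domain boundary, and a ratio that moves towards 0 is called weaker here. Tested with edgeR against a fold change of 1.1, only Tnf/Lta and Ebi3 passed among the members, both weaker.

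**Figure D5:**
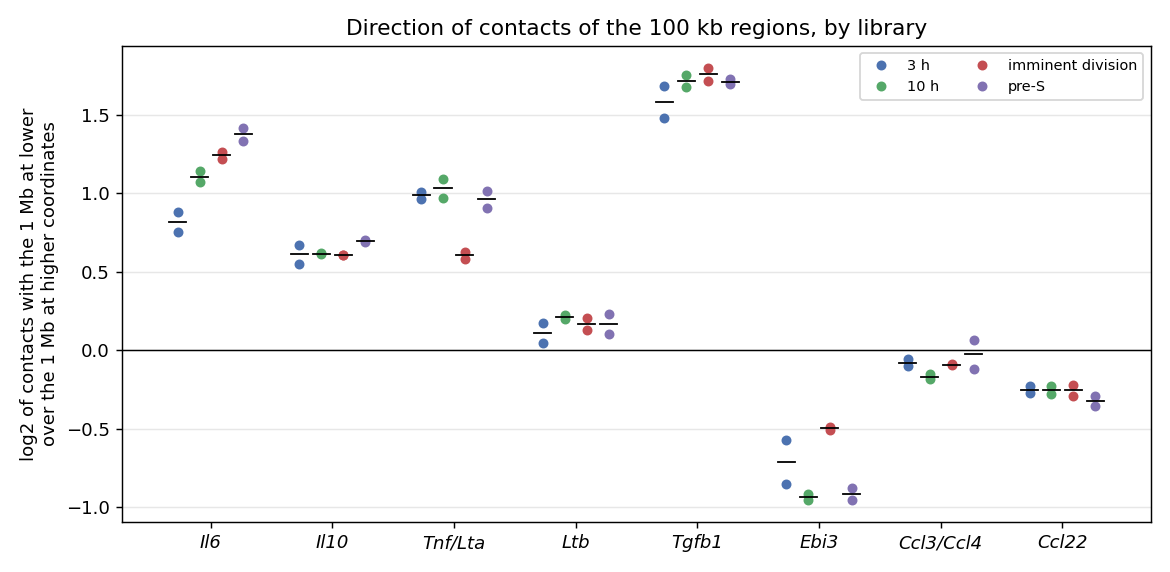
Log2 ratio of the contacts of each 100 kb region with the 1 Mb at lower over the 1 Mb at higher coordinates (y axis). Points are libraries, coloured by group, and black bars are means of 2 libraries; Ccl3 and Ccl4 share a region. At imminent division Tnf/Lta and Ebi3 lie nearer to 0 than at 10 h and in pre-S cells.

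The ratio of Tnf/Lta was 1.01 and 0.96 at 3 h, then 0.97 and 1.09 at 10 h, 0.58 and 0.63 for imminent division and 0.91 and 1.02 among pre-S cells. Only imminent division stood apart. It changed by -0.43 ± 0.05 from 10 h (FDR = 2.39e-07) and by -0.35 ± 0.06 from pre-S (FDR = 0.00138). Ebi3 pointed the other way, with -0.85 and -0.57 at 3 h, then -0.92 and -0.95 at 10 h, -0.49 and -0.51 for imminent division and -0.88 and -0.95 among pre-S cells. It changed by 0.44 ± 0.06 from 10 h (FDR = 1.46e-06) and by 0.42 ± 0.06 from pre-S (FDR = 0.000147), so that here, too, imminent division differed from pre-S.

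These 2 of 8 regions compare with 18.1% of all regions from 10 h to imminent division (13.7% weaker) and 5.55% between imminent division and pre-S (4.94% weaker). The differences between the 33 h groups were not called by DESeq2 (FDR = 0.261 for Tnf/Lta and 0.15 for Ebi3), and that of Tnf/Lta was lost without the second pre-S library (FDR = 0.0784). From 10 h to pre-S none of the 8 regions passed edgeR's test (1 unadjusted p under 0.05, Il6; background 4.81%), and from 3 h to 10 h none did (2, Il6 and Ebi3; background 0.379%). DESeq2 called none in either. Tgfb1 had the ratio farthest from 0, between 1.48 and 1.80 in the 8 libraries. The ratio of Il6 was 0.75 and 0.89 at 3 h, then 1.14 and 1.07 at 10 h, 1.26 and 1.22 for imminent division and 1.42 and 1.33 among pre-S cells, and its change of 0.28 ± 0.07 from 10 h to pre-S had an FDR of 0.0747.

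Other genes of these pathways were taken from lists of receptors and partner subunits, of other cytokines and of cluster neighbours. Of 17 start bins of receptors and partners, 2 were higher and 6 lower from 10 h to imminent division, and 1 and 6 from 10 h to pre-S, with median log2 changes of -0.06 and -0.02. Over all start bins 22.3% were higher and 21.9% lower at imminent division, and 19.2% and 18.1% in pre-S cells, and the counts of all lists here are to be read against these shares. Without the second imminent division library 1 of the 17 was higher and 5 were lower at imminent division, against 38.9% of all in either direction, and the receptor calls named next held. Tgfbr2, a receptor of TGF-β, fell by 16.8% (log2 change -0.27 ± 0.04, FDR = 3.69e-05) and fell by 12.7% to pre-S, and Il10rb, a subunit of the IL-10 receptor, fell by 16.2% (-0.25 ± 0.04, FDR = 5.08e-05). Il12rb2, which is also a subunit of receptors for IL-35, rose by 15.5% (0.21 ± 0.04, FDR = 0.000677). In pre-S cells Tnfrsf1b, a receptor of TNF, changed by -0.19 ± 0.05 (FDR = 0.00403) and Tnfrsf14, a receptor of TNF family ligands, by -0.17 ± 0.04 (FDR = 0.00616).

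Of 25 start bins of other cytokines, 10 were higher and 6 lower from 10 h to imminent division, 5 and 2 from 10 h to pre-S, and 0 and 1 between the 33 h groups. Without the second imminent division library the first of these counts were 7 and 4. Il2, a growth factor of T cells, rose by 21.4% (0.28 ± 0.04, FDR = 8.14e-05) and Il21, which acts on germinal centre B cells, by 18.1% (0.24 ± 0.04, FDR = 0.000104), whereas Il22 changed by -0.34 ± 0.06 (FDR = 0.000361). In pre-S cells Il22 changed by -0.40 ± 0.07 (FDR = 0.000445), Cxcl12 by 0.23 ± 0.04 (FDR = 0.00064) and Il21 by 0.21 ± 0.04 (FDR = 0.000847). Tnfsf13 (APRIL), which sustains plasma cells, was lower at imminent division than in pre-S cells (-0.18 ± 0.04, FDR = 0.0194), a call lost without the second imminent division library (FDR = 0.191). In compartment terms 18 of 18 receptors and partners lay in A in every library, and of the 26 other cytokine genes 19 lay in A, 4 in B and 3 in both by library.

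Of 10 bins of cluster neighbours, 3 were lower from 10 h to imminent division and 5 from 10 h to pre-S, and none was higher. Those of Nfkbil1 and of Aif1 and Lst1 are the Tnf/Lta and Ltb bins themselves. Around Il10, Mapkapk2 changed by -0.10 ± 0.04 (FDR = 0.0345) to imminent division, and to pre-S Il20 and Il19, which share a bin, by -0.16 ± 0.04 (FDR = 0.00467) and Fcmr and Il24 by -0.13 ± 0.04 (FDR = 0.0183). Among marker genes, 2 of 8 B cell marker bins were higher and 5 lower from 10 h to imminent division (2 and 3 without the second imminent division library), led by Cd79a (-0.26 ± 0.05, FDR = 0.000242), 1 and 2 of 6 T cell marker bins, led by Cd4 (-0.24 ± 0.04, FDR = 0.000112), and 0 and 2 of 6 myeloid marker bins, led by Cd68 (-0.12 ± 0.04, FDR = 0.0189), which shares its start bin with Tnfsf13. The T cell marker counts were the same without that library, and the myeloid count was 0. The part of other cell types in the cytokine values was not tested.

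Only start bins on other chromosomes were searched for those whose summed contacts followed each member most closely over the 8 libraries. For Il6 they were Zbed3 (r = 0.995) and Akap10 (r = 0.988), for Ebi3 Fxyd5 (r = 0.996) and Tmem132d (r = 0.992), for Tnf/Lta the bin of Fhl3, Inpp5b and Sf3a3 (r = 0.992), for Ltb the bin of Bcl2l12, Cpt1c, Irf3 and Prmt1 (r = 0.992), for Tgfb1 Ccdc167 (r = 0.989) and for Il10 Lgmn (r = 0.976). For Ccl22, Ccl4 and Ccl3 they were Gli3 (r = 0.975), Khdrbs3 (r = 0.952) and Zc3h12c (r = 0.951). These are the highest of the correlations with start bins on other chromosomes, over 8 libraries that share 4 groups, and they describe the pattern only.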

How the data were processed

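Per the labels and the methods, the authors mapped the paired-end reads to mm10 (cutadapt and bowtie2 within diffHic), took out duplicates, dangling ends and overly long fragments, and deposited unnormalised counts of read pairs for every pair of 50 kb bins, 1 matrix for each of 8 libraries. The matrices name no coordinates, so bins were rebuilt from MboI fragments of the 66 GRCm38 sequences, which gave the deposited 53357 bins. Of 48088 autosomal bins, 749 with over 10% undetermined sequence or an interchromosomal coverage more than 4 times above or below the median were left out. The study's excluded regions and HOMER were not used here.

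Tests used edgeR 4.0.16 and limma 3.58.1 in R 4.3.3, over all 8 libraries in a one-way layout of 4 groups, with Benjamini-Hochberg adjustment over each whole table at 5%. Summed contacts used bins with at least 200 counts and loess offsets on abundance. DIs used bin pairs with a summed count of at least 10 and an abundance over 4 times that of interchromosomal pairs, with pairs under 1.5 Mb apart normalised separately. Boundary ratios used edgeR's test against a fold change of 1.1. DESeq2 1.42.0, TMM factors, bin coverage, other windows and filters, a block for replicate and leaving out each library were alternatives. Replicates are biological per the series' design text, and between replicates the chi-square per start bin was 1.21 to 4.54, where 1 is sampling noise. No molecular identifiers were used, so counting error covers read pairs and not molecules.

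The members and gene lists were chosen with earlier results of these data known. Named are all members, up to 3 stronger and 3 weaker DIs per bin and comparison by p, the 3 highest partners at least 100 kb away, up to 3 called genes per list and comparison, and the bins most alike on other chromosomes. A few partner and marker genes that this rule would name are not reported here. The scripts were tested on simulated data.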

Additional observations from a re-analysis of the deposited data

How the results depend on the processing

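Counts of member bins called are given in the order 10 h over 3 h, imminent division over 10 h, pre-S over 10 h and imminent division over pre-S, and the cause of a change was not tested. For summed contacts (0, 7, 5 and 3 of 9), bin coverage in the offsets gave 1 in the first and 2 in the third, the distance filter 1 in the third and 5 in the last, and in the last comparison TMM factors gave 0, the replicate block 1 and DESeq2 1. Directions turned for Il10 (0.0179) and Ccl3 (-0.0217 with TMM factors and -0.0244 with DESeq2) from 10 h to imminent division, for Ebi3 (0.0272) from 10 h to pre-S, and for Ltb between the 33 h groups (0.0043 with coverage and 0.0024 with the filter), the Il10 and Ebi3 values being those of the filter. For the compartment (1, 2, 1 and 0 of 8), 250 kb bins gave 0 and 1 in the first and second, and quantile normalisation 4 and 1 in the third and last. For insulation (0, 8, 8 and 0 of 9), dividing out coverage gave 6 in the first and 9 in the last. For the boundary ratio (0, 2, 0 and 2 of 8), testing against no fold threshold gave 2 in the first and 2 in the third, and DESeq2 0 in the last. For DIs (0, 39, 9 and 3 of 393), coverage gave 1 in the first and 10 in the last, TMM factors 16 in the third and 1 in the last, and DESeq2 11, 3 and 0 in those after the first. The highest partner's ratio with bin coverage in the expected count was 2.77 for Il6, 1.69 for Il10, 1.2 for Tnf/Lta, 1.07 for Ltb, 2.06 for Tgfb1, 1.94 for Ebi3, 1.83 for Ccl3, 1.68 for Ccl4 and 1.80 for Ccl22. These are the partners ranked first without coverage, and for Il10, Tnf/Lta, Ebi3 and Ccl4 they no longer had the highest ratio.

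Leaving out 1 library at a time gave 0 to 0, 5 to 7, 1 to 6 and 0 to 5 for summed contacts, 0 to 3, 1 to 2, 1 to 1 and 0 to 1 for the compartment, 0 to 2, 8 to 8, 7 to 8 and 0 to 2 for insulation, 0 to 1, 2 to 2, 0 to 0 and 1 to 2 for the boundary ratio, and 0 to 0, 4 to 44, 0 to 9 and 0 to 3 for DIs. The shares of all bins or bin pairs called are not given beside these ranges. An arm left with 1 library was assumed to vary like the other groups. Same-numbered libraries of 2 groups deviated together with r between -0.443 and 0.138. With 2 libraries per group this cannot show whether groups shared animals or batches.

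Over all bins, the count for summed contacts was 9 from 3 h to 10 h, against 1 with TMM factors, 257 with coverage, 84 with the filter, 28 within 1 Mb and 2 with the block. It was 4941 from 10 h to pre-S, against 3084 with coverage, and 543 between the 33 h groups, against 12 (TMM), 1572 (coverage), 2872 (filter), 978 (1 Mb), 183 (block) and 61 (DESeq2), with 53.0% higher against 91.7% with TMM factors. Quantile normalisation of the compartment called 1957 against 781 from 3 h to 10 h, and moved the share called higher from 30.7, 38.9, 10.4 and 88.6% to 50.7, 47.7, 49.5 and 49.3%. Insulation without coverage called 16033 against 9 from 3 h to 10 h, and 36637 against 4471 between the 33 h groups, where the block called 2159. For the boundary ratio, no threshold called 1264, 8685, 4429 and 4957 and DESeq2 1, 1463, 103 and 175, against 88, 4196, 1117 and 1290. DIs numbered 29332 from 10 h to imminent division, against 56394 (TMM), 57293 (coverage) and 7426 (DESeq2), with 34.4% stronger against 0.862% by DESeq2. They numbered 8659 to pre-S, against 1911 by DESeq2, with 57.1% stronger against 29.6% (TMM), 25.0% (coverage) and 7.54% (DESeq2), and 5250 between the 33 h groups, against 24657 (coverage) and 194 (DESeq2). Single bin pairs rest on few read pairs, which limits the precision of each value, and calls at another depth were not computed.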
